A study of Mus musculus with 9 samples.

Results

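The genes described here form the Fc receptor, Tyrobp and Trem2 signaling set of mouse phagocytes: Fcgr1, Fcgr2b, Fcgr3, Fcgr4, Fcer1g, Tyrobp, Trem2, Pirb, Lilrb4a and Syk. They were found by gene name, which gave 10 of the 37893 genes in the deposited table, with 1 row each. All 10 were among the 17247 genes tested, those with at least 0.5 FPKM (fragments per kilobase of transcript, scaled to library size) in at least 3 of 9 libraries. Fcgr4 reached that level in no sham library, and Pirb reached it in the 3 knockout libraries alone, so these genes entered the test through the groups in which they were high.

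Poly(A) RNA of the mouse cerebral cortex was sequenced in 3 groups of 3 mice. The sham_WT group held cortex of wild-type mice after sham surgery. The IR_WT group held the peri-infarct area of wild-type cortex after transient middle cerebral artery occlusion (tMCAO), with 60 min of ischemia before 1 day of reperfusion, and the IR_Matn3_ko group held the same area from Matn3 knockout mice treated alike. The series asked how loss of matrilin-3, an extracellular matrix protein, alters gene expression after stroke. There was no sham group of knockout mice, no promoter or cell type was given for the knockout, and the labels gave neither age nor sex.

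Fc gamma receptors bind the constant part of immunoglobulin G on opsonised cells and immune complexes. The activating receptors described here signal through the adaptor Fcer1g, while Trem2, a microglial receptor for lipids and lipoproteins, signals through the adaptor Tyrobp. Both adaptors carry immunoreceptor tyrosine-based activation motifs, which recruit the kinase Syk once Src-family kinases have phosphorylated them, and receptors such as Fcgr2b, Pirb and Lilrb4a carry inhibitory motifs that recruit phosphatases instead. In the brain the set is expressed mainly by microglia, border-associated macrophages and blood-derived myeloid cells.

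The libraries held 53400376 to 68370527 counts in all. Levels are given in CPM (counts scaled to library size), and a gene without a count could still lie at 0.0439 to 0.0562 CPM, by counting error alone. Matn3 itself had 0, 4 and 26 counts in the sham libraries, 33, 12 and 48 in the IR_WT libraries and 0, 17 and 0 in the knockout libraries. The 17 counts of the library labelled IR_Matn3_ko 2 lay within the IR_WT range, so Matn3 was too low to check the genotype labels, and the groups are named as labelled. The libraries also fell into sets, and the IR_WT group alone was split between them. Transcripts of a small intestine list summed to 10.2 to 13.2 CPM in the 3 sham libraries and IR_WT 1, and to 72.4 to 345 CPM in IR_WT 2, IR_WT 3 and the 3 knockout libraries. A B cell list ran the other way, at 202 to 300 CPM in the first 4 libraries and 10.2 to 24.9 CPM in the other 5. Values with this library set as a term are also given for Pirb and for the genes whose call or sign it changes. All sham libraries lie in the first set, so with this term the ischemia values rest on IR_WT 1 alone against sham. Knockout against IR_WT then rests on IR_WT 2 and IR_WT 3, and knockout against sham joins these steps.

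Of the 10 genes, 4 lie within 276 kb of chromosome 1 (GRCm38, chr1:170958617-171234365): Fcgr2b on the minus strand, Fcgr4 on the plus strand, and Fcgr3 and Fcer1g on the minus strand. The others lie apart, Fcgr1 on chromosome 3 (chr3:96282909-96293969, minus strand), Tyrobp (chr7:30413760-30417582, plus strand) and Pirb (chr7:3711409-3720391, minus strand) on chromosome 7, Lilrb4a on chromosome 10 (chr10:51490956-51496611, plus strand), Syk on chromosome 13 (chr13:52583173-52648792, plus strand) and Trem2 on chromosome 17 (chr17:48346401-48354147, plus strand).

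Start-site windows of 4 genes are shown that hold the core GAGGAA, which the myeloid factor PU.1 binds. Of these, Fcgr1, Fcgr3 and Fcgr4 rose after ischemia and Trem2 did not pass the test; Fcgr2b and Fcer1g also rose, and their windows hold no GAGGAA. The windows run from 250 bases before to 50 bases after the start site and were taken from RefSeq (GRCm38.p6), with capitals marking GAGGAA or its reverse complement. They are Fcgr1 (chr3:96293920-96294219, minus strand), Fcgr3 (chr1:171059354-171059653, minus strand), Fcgr4 (chr1:171018676-171018975, plus strand) and Trem2 (chr17:48346151-48346450, plus strand).
Fcgr1: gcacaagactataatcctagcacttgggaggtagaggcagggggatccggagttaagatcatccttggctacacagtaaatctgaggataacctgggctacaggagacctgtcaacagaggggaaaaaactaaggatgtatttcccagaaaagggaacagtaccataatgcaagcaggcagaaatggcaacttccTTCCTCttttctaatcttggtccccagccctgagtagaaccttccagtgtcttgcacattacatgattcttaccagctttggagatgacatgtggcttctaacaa
Fcgr3: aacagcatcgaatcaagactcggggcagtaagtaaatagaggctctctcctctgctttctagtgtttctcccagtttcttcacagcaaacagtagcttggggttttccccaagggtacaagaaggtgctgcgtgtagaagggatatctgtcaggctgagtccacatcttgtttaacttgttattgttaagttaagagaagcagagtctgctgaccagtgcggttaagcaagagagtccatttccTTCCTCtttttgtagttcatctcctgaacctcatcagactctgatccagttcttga
Fcgr4: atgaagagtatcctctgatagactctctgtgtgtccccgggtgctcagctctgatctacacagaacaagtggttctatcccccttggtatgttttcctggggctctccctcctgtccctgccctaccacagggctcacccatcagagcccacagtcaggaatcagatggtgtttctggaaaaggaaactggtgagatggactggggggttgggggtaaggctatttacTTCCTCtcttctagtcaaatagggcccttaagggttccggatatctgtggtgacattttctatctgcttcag
Trem2: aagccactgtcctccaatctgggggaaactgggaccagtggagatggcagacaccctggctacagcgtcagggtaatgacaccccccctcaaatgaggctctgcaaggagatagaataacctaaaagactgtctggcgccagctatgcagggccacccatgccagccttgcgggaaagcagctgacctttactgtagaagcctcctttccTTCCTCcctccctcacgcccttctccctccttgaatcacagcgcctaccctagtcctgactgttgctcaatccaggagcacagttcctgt

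The first base of the match lay at −55 from the start site in Fcgr1, −6 in Fcgr3, −22 in Fcgr4 and −40 in Trem2, each time as the reverse complement. Windows were found for 8 of the 10 genes (10 windows), and 6 of these genes held GAGGAA on either strand; 28.3% of all 32817 windows of that length held it. The windows of Pirb (first bases at −185, −120 and −87), the second window of Fcgr3 (−15) and the second window of Syk (−9) made up the other matches. TGANTCA, the AP-1 site, was found in Trem2 alone (−9; 7.81% of all windows), and TTCNNNGAA, the STAT site, in Fcgr1 alone (−109; 8.29%). Within a window, none of these matches overlapped another, and the Fcgr3 windows hold the same match. A match is a description of the letters in the window.

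Ischemia and reperfusion in wild-type mice came with higher levels of 7 of the 10 genes: Fcgr1, Fcgr2b, Fcgr3, Fcgr4, Fcer1g, Tyrobp and Lilrb4a (edgeR quasi-likelihood test, adjusted p under 0.05). Over all genes tested, 2.54% were called higher and 1.52% lower in this comparison (4.06% in either direction). The sham and IR_WT libraries of the 7 genes did not overlap, where 13.1% of all genes showed such a separation upward and 12.5% downward. These counts include Fcgr4, which entered the test through the ischemic libraries. The increases ran from 1.98-fold for Tyrobp to 16.4-fold for Fcgr4. Trem2, Pirb and Syk did not pass the test. The median log2 fold change of the 10 genes was 1.27, against 0.00 over all genes tested. In these bulk samples, more cells of a type and more RNA per cell cannot be told apart.

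In the knockout libraries all 10 genes had a higher mean than in IR_WT, with a median log2 fold change of 0.69 against −0.00 over all genes tested. No gene of the set passed the edgeR test at an adjusted p under 0.05 (background 0%, since 0 of 17247 genes passed it). At an unadjusted edgeR p under 0.05, 6 of the 10 genes were higher (Fcgr1, Fcgr2b, Fcer1g, Tyrobp, Pirb and Lilrb4a) and 0 lower, against 6.59% of all genes higher and 6.75% lower. These counts include Pirb, which entered the test through the knockout libraries. The values of 7 genes did not overlap between the groups, all higher in the knockout libraries, where 9.42% of all genes showed such a separation upward and 8.44% downward. With DESeq2, 5 of the genes passed (Fcgr1, Fcer1g, Tyrobp, Pirb and Lilrb4a; 2.16% of all genes called higher). With limma on log2(FPKM + 1), 2 passed (Fcer1g and Lilrb4a; 0.441% of all genes).

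Knockout libraries after ischemia differed from sham libraries in 8 of the 10 genes, all higher, where 11.8% of all genes were called higher and 10.7% lower (22.5% in either direction, edgeR). The same 8 genes did not overlap between these groups, against 21.6% of all genes upward and 20.8% downward. The genes were the 7 that rose in wild-type mice and Pirb. They include Fcgr4, which entered the test through the ischemic libraries, and Pirb, which entered it through the knockout libraries. This comparison differs in surgery, genotype and library set and shares its libraries with the other comparisons, so it is no separate evidence. The plot of levels shows every library, and the plot of fold changes shows the 3 comparisons with their intervals.

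**Figure D1:**
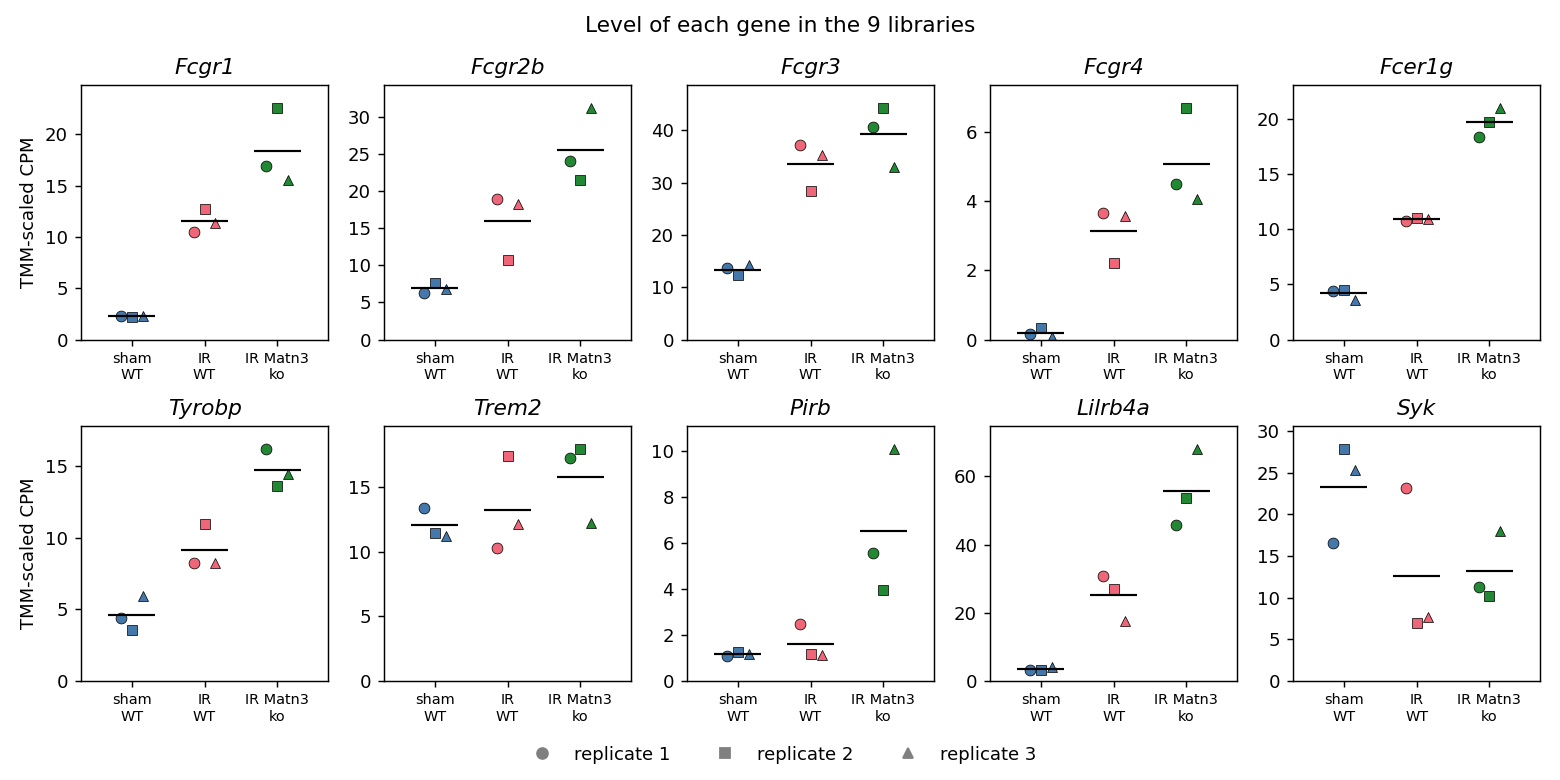
Level of each of the 10 genes in the 9 libraries, in CPM after TMM scaling (a correction of library size for composition), on linear axes that start at 0. Points are libraries, their shape gives the replicate number and the bars are group means; the Fcer1g values do not overlap, at 3.62 to 4.52 in sham_WT, 10.7 to 11.0 in IR_WT and 18.4 to 21.0 in IR_Matn3_ko, while Trem2 overlaps in all groups.

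**Figure D2:**
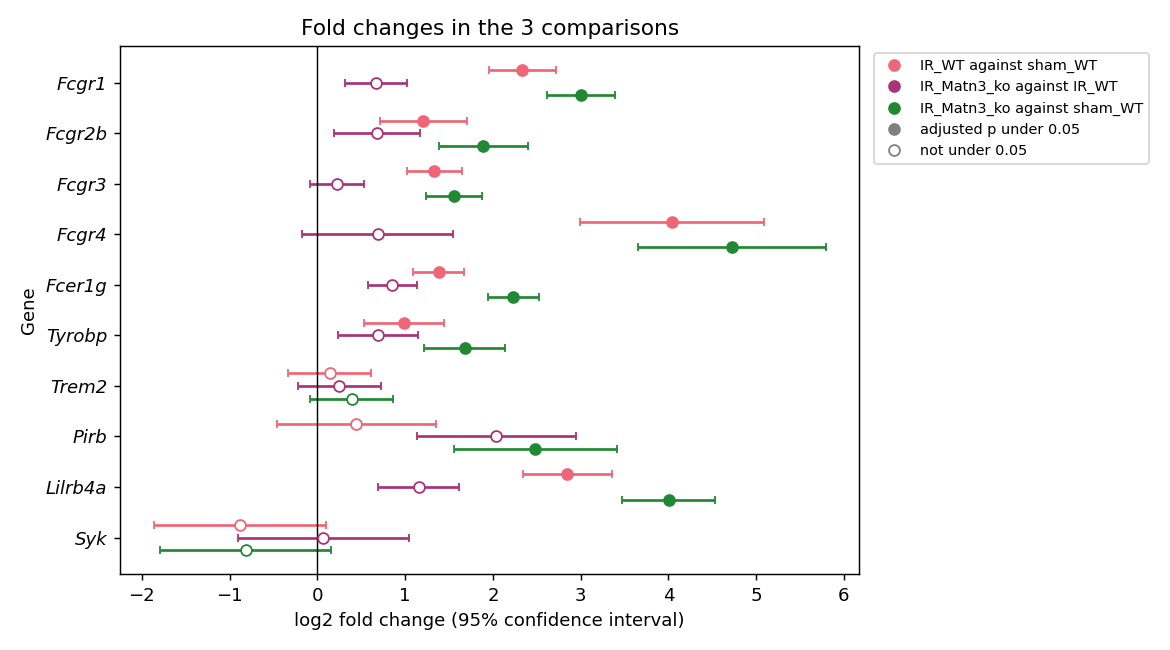
The log2 fold change of each gene in the 3 comparisons, with the 95% confidence interval of the edgeR fit; filled points have an adjusted p under 0.05. Of the 10 genes, 7 are filled for IR_WT against sham_WT, 8 for IR_Matn3_ko against sham_WT and 0 for IR_Matn3_ko against IR_WT, whose points all lie right of 0.

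Among the activating Fc gamma receptors, Fcgr1, the high-affinity receptor for immunoglobulin G, had 2.28, 2.24 and 2.32 TMM-scaled CPM in the sham libraries, 10.5, 12.7 and 11.4 in the IR_WT libraries and 16.9, 22.6 and 15.6 in the knockout libraries. The sham libraries were nearly equal, and each group lay wholly above the one before it. Fcgr1 rose 5.05-fold with ischemia (log2 2.34 ± 0.17 SE, n = 3 against 3, edgeR adjusted p = 0.000154). The step from IR_WT to the knockout libraries was 1.59-fold (log2 0.67 ± 0.16, edgeR adjusted p = 0.132). With DESeq2 that step passed (adjusted p = 0.00838), and it did not pass in any of the other 19 alternatives.

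Fcgr3, the activating receptor with the highest level of the set, had 13.6, 12.2 and 14.2 CPM in the sham libraries, 37.3, 28.3 and 35.3 in IR_WT and 40.7, 44.2 and 32.9 in the knockout libraries. All ischemic libraries lay above all sham libraries, whereas the ischemic groups overlapped. The increase with ischemia was 2.52-fold (log2 1.33 ± 0.14 SE, edgeR adjusted p = 0.000977). For knockout against IR_WT the log2 fold change was 0.22, with a 95% interval from −0.08 to 0.53 (edgeR adjusted p = 0.531). Of the 50-base stretches in Fcgr3 transcripts, 9.58% also occur in Fcgr2b, so part of their counts could be shared between these receptors.

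Fcgr4, a mouse receptor for some immunoglobulin G subclasses, was close to absent in sham cortex, with 8, 18 and 4 counts. It had 213, 154 and 225 counts in IR_WT and 279, 474 and 258 in the knockout libraries, which correspond to 3.67, 2.20 and 3.58 and to 4.48, 6.69 and 4.05 TMM-scaled CPM. Every ischemic library was well above every sham library, and the knockout libraries lay just above IR_WT without overlap. The fitted increase with ischemia was 16.4-fold (log2 4.04 ± 0.47 SE, edgeR adjusted p = 0.00169), and it was the largest of the set. On the log2(FPKM + 1) scale of limma, which shrinks low genes, the value was 1.53. With edgeR it was 4.73 without sham 2 and 3.66 without sham 3. The knockout step was 0.69 ± 0.39 on the log2 scale (edgeR adjusted p = 0.479).

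Fcgr4 was also higher relative to Fcgr3 after ischemia. The ratio of their FPKM values was 0.0158, 0.0365 and 0.00735 in sham, 0.136, 0.107 and 0.14 in IR_WT and 0.152, 0.209 and 0.17 in the knockout libraries. The ratio in every ischemic library exceeded that in every sham library, and the lowest knockout ratio lay above the highest IR_WT ratio. These ratios were not tested.

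Fcgr2b, the inhibitory Fc gamma receptor, had 6.32, 7.55 and 6.81 CPM in sham, 18.9, 10.7 and 18.3 in IR_WT and 24.0, 21.5 and 31.2 in the knockout libraries. The groups did not overlap, although IR_WT 2 stood lower than the other IR_WT libraries. It rose 2.31-fold with ischemia (log2 1.21 ± 0.22 SE, edgeR adjusted p = 0.0177). That call was lost when sham 1, sham 2, sham 3 or IR_WT 3 was left out, with edgeR adjusted p from 0.0528 to 0.0911. The knockout step was 1.60-fold (log2 0.68 ± 0.22, edgeR adjusted p = 0.227). Of its 50-base stretches, 4.38% occur in other genes, chiefly Fcgr3.

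The balance of inhibitory to activating Fc gamma receptors, taken as Fcgr2b FPKM over the sum of Fcgr1, Fcgr3 and Fcgr4 FPKM, was 0.122, 0.159 and 0.128 in sham. It was 0.115, 0.0799 and 0.114 in IR_WT and 0.124, 0.0939 and 0.191 in the knockout libraries. The IR_WT ratios lay below all sham ratios, while the knockout ratios spread over both groups. No test was made of this ratio.

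Of the adaptors, Fcer1g, the shared gamma chain of the activating Fc receptors, had 4.40, 4.52 and 3.62 CPM in sham, 10.7, 11.0 and 10.9 in IR_WT and 18.4, 19.7 and 21.0 in the knockout libraries. Each group lay clear of the next. The increase with ischemia was 2.60-fold (log2 1.38 ± 0.13 SE, edgeR adjusted p = 0.000515). The knockout step was 1.81-fold (log2 0.85 ± 0.13, 95% interval 0.57 to 1.13), with an edgeR adjusted p of 0.0752, the lowest of the set in this comparison. It passed with DESeq2 (adjusted p = 1.50e-07), limma on log2(FPKM + 1) (adjusted p = 0.0218) and limma on log2(FPKM + 0.1) (adjusted p = 0.0406), and the fold change stayed between 0.80 and 0.92 on the log2 scale in all 20 alternatives. Among the 5 libraries with intestinal transcripts alone, it was 0.84 (edgeR adjusted p = 0.121).

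Tyrobp, the adaptor also known as DAP12, had 4.38, 3.54 and 5.91 CPM in sham, 8.24, 10.9 and 8.22 in IR_WT and 16.2, 13.6 and 14.5 in the knockout libraries. The groups did not overlap. It rose 1.98-fold with ischemia (log2 0.99 ± 0.21 SE, edgeR adjusted p = 0.0304), the highest adjusted p of the 7 calls. The call was lost with no filter on low genes (adjusted p = 0.0605), in a fit of the compared groups alone (0.0628) and with the replicate block (0.0732), all by edgeR. It was also lost without sham 1 (0.121), sham 2 (0.0948), IR_WT 2 (0.094) or IR_Matn3_ko 3 (0.0542). With the library set as a term, which sets IR_WT 1 alone against sham, the log2 value with ischemia was 0.84. The knockout step was 1.61-fold (log2 0.69 ± 0.20, edgeR adjusted p = 0.197; DESeq2 adjusted p = 0.0309).

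Trem2, the receptor that signals through Tyrobp, did not pass the test in any comparison. It had 13.4, 11.5 and 11.2 CPM in sham, 10.3, 17.4 and 12.1 in IR_WT and 17.3, 17.9 and 12.2 in the knockout libraries. All groups overlapped, with IR_WT 2, IR_Matn3_ko 1 and IR_Matn3_ko 2 as the highest libraries. The log2 fold change with ischemia was 0.14 ± 0.21 SE, with a 95% interval from −0.33 to 0.61 (edgeR adjusted p = 0.765). Its difference from the change in Tyrobp was not tested. Its sign turned with the library set as a term (−0.22, IR_WT 1 alone against sham) and without IR_WT 2 (−0.10). For knockout against IR_WT the value was 0.25, with an interval from −0.22 to 0.72 (edgeR adjusted p = 0.663), and for knockout against sham it was 0.39, from −0.08 to 0.87 (edgeR adjusted p = 0.215). With the library set as a term these values were 0.10 and −0.12.

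Per unit of transcript length, Trem2 was lower relative to Tyrobp after ischemia. The ratio of Trem2 FPKM to Tyrobp FPKM was 0.414, 0.442 and 0.256 in sham, 0.169, 0.215 and 0.199 in IR_WT and 0.144, 0.178 and 0.114 in the knockout libraries. Every ischemic library lay below every sham library, and the ischemic groups overlapped. This ratio was not tested.

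Among the inhibitory receptors of the Lilr family, Lilrb4a rose with ischemia and Pirb did not pass the test. Lilrb4a had 3.21, 3.30 and 3.93 CPM in sham, 30.7, 27.0 and 17.5 in IR_WT and 45.8, 53.6 and 67.9 in the knockout libraries. The groups were separate, with even sham values and a wide spread after ischemia. The increase with ischemia was 7.21-fold (log2 2.85 ± 0.23 SE, edgeR adjusted p = 0.00023), and knockout libraries were 2.22-fold above IR_WT (log2 1.15 ± 0.21, 95% interval 0.69 to 1.62, edgeR adjusted p = 0.116). DESeq2 (adjusted p = 2.78e-05) and limma on log2(FPKM + 1) (adjusted p = 0.0496) called the knockout step.

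Counts of Lilrb4a are uncertain because 46.7% of the 50-base stretches of its transcripts also occur in Gm49339, which overlaps it on the same strand, or in its close relative Lilr4b. Gm49339 had 0.0991, 0 and 0.17 CPM in sham, 0, 0 and 0.986 in IR_WT and 13.3, 3.09 and 0 in the knockout libraries. It was therefore highest in IR_Matn3_ko 1, the knockout library in which Lilrb4a was lowest, and its part in the Lilrb4a counts was not tested. Lilr4b rose 3.13 on the log2 scale with ischemia (edgeR adjusted p = 0.000767), from 1.21 to 2.50 CPM in sham to 13.2 to 22.0 CPM in IR_WT.

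Pirb, which binds class I major histocompatibility molecules, had 1.09, 1.26 and 1.15 CPM in sham, 2.48, 1.17 and 1.13 in IR_WT and 5.59, 3.94 and 10.1 in the knockout libraries. The IR_WT libraries 2 and 3 sat at the sham level, IR_WT 1 was higher, and every knockout library was above all others. Ischemia in wild-type mice gave a log2 value of 0.45 ± 0.40 SE (edgeR adjusted p = 0.597), with −0.019 without IR_WT 1. With the library set as a term, which sets IR_WT 1 alone against sham, the value was 1.08. The knockout libraries were 4.11-fold above IR_WT (log2 2.04 ± 0.40, 95% interval 1.14 to 2.94, edgeR adjusted p = 0.116).

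The call on Pirb changed with the treatment of IR_WT 1. With the library set as a term, the knockout step of Pirb was 2.50 (edgeR adjusted p = 0.0495; 0.168% of all genes called higher), and without IR_WT 1 it was 2.51 (edgeR adjusted p = 0.0481; 0.174% of all genes). Among the 5 libraries with intestinal transcripts alone it was 2.51 and did not pass (edgeR adjusted p = 0.136). All of these fits compare the knockout libraries with IR_WT 2 and IR_WT 3, so they are not separate checks. DESeq2 on all libraries called the step (adjusted p = 0.000168). Pirb entered the test through the knockout libraries alone. Of its 50-base stretches, 34.0% occur in other genes, chiefly Gm14548, Pira2 and Lilra6. Pira2, an activating relative, had 0.0795 to 0.155 CPM in IR_WT and 0.642, 0.48 and 1.76 CPM in the knockout libraries, and so was also highest in IR_Matn3_ko 3.

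Syk, the kinase on which the adaptors converge, did not pass the test in any comparison. It had 16.6, 27.8 and 25.3 CPM in sham, 23.2, 6.99 and 7.61 in IR_WT and 11.3, 10.2 and 18.0 in the knockout libraries. IR_WT 1 lay within the sham range, and IR_WT 2 and 3 were the lowest libraries of all. The log2 fold change with ischemia was −0.89 ± 0.44 SE, with a 95% interval from −1.87 to 0.09 (edgeR adjusted p = 0.309). Knockout against IR_WT gave 0.07, with an interval from −0.91 to 1.04 (edgeR adjusted p = 0.963), and 0.85 with the library set as a term (edgeR adjusted p = 0.2).

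The Syk result changed with the treatment of IR_WT 1. Without IR_WT 1 the log2 fold change with ischemia was −1.67 and passed (edgeR adjusted p = 0.00723). With the library set as a term, which sets IR_WT 1 alone against sham, it was −0.00. For knockout against sham it was −0.82 (edgeR adjusted p = 0.212) and turned to 0.85 with that term. Transcripts of the B cell list, cells in which Syk acts downstream of the antigen receptor, summed to 211 to 300 CPM in sham, 15.0 to 202 in IR_WT and 10.2 to 13.8 in the knockout libraries, with IR_WT 1 as the highest ischemic library. In IR_Matn3_ko 3, Syk was at 18.0 CPM at one of the lowest sums of that list. The part of these cells in the Syk levels was not tested.

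**Figure D3:**
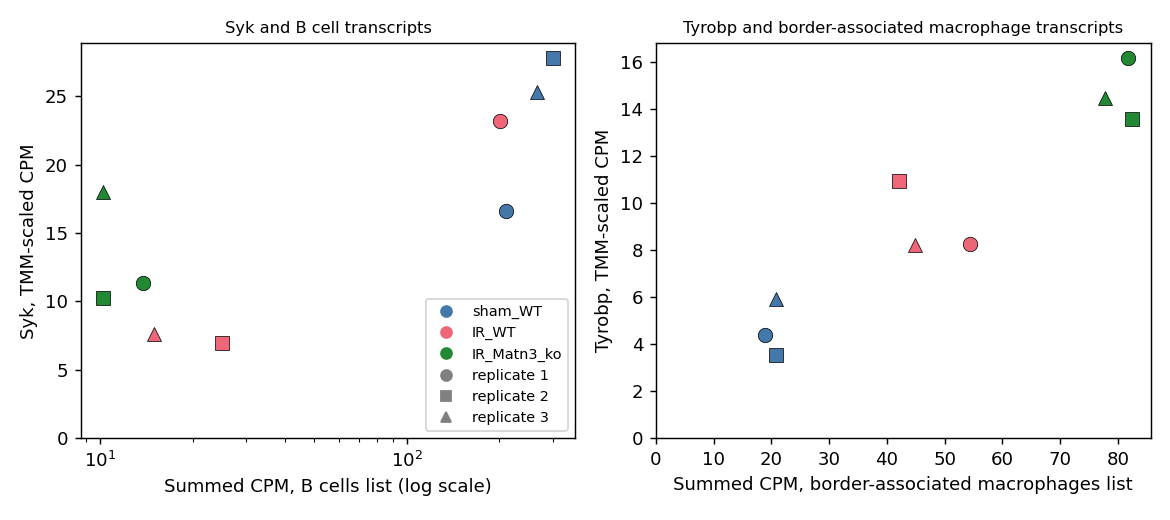
Left, Syk (TMM-scaled CPM) against the summed CPM of a B cell list on a log axis; right, Tyrobp against the summed CPM of a border-associated macrophage list on a linear axis, 1 point per library. The 4 libraries at 202 to 300 CPM of B cell transcripts hold the Syk values 16.6 to 27.8, and both the Tyrobp values and the macrophage sums are lowest in sham_WT and highest in IR_Matn3_ko. The scavenger receptor gene Stab1 makes up most of the macrophage sum, with means of 12.9, 32.3 and 52.1 CPM in the 3 groups. The defining markers Mrc1 (3.58, 5.13 and 5.07 CPM) and Cbr2 (0.934, 0.734 and 0.301 CPM) do not show the same order.

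Per transcript length, the order of the genes changed between groups. In sham cortex the highest mean levels were those of Fcgr3 (6.60 ± 0.49 FPKM, SD, n = 3), Tyrobp (5.92 ± 1.57) and Fcer1g (4.10 ± 0.48), and the ranges of Fcgr3 and Tyrobp overlapped. Syk (2.14 ± 0.54 FPKM) and Trem2 (2.09 ± 0.20), which overlapped each other, came next, and Fcgr2b, Fcgr1, Lilrb4a, Pirb and Fcgr4 followed below, with overlap between Pirb and Fcgr4 alone. In IR_WT the same 3 genes led, with Fcgr3 at 17.8 ± 2.04, Tyrobp at 12.6 ± 2.59 and Fcer1g at 11.4 ± 0.49 FPKM, each overlapping its neighbour.

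Lilrb4a (4.41 ± 1.25 FPKM) and Fcgr1 (4.09 ± 0.51) moved from below Trem2 to above it in IR_WT, where Fcgr2b, Trem2, Fcgr4 and Syk overlapped as a chain from 2.51 down to 1.23 FPKM. In the knockout libraries Fcgr3 (21.3 ± 3.31 FPKM), Fcer1g (21.1 ± 1.54) and Tyrobp (20.7 ± 1.55) could not be ordered beyond their spread. Lilrb4a stood at 10.02 ± 2.04, Fcgr1 at 6.67 ± 1.45 and Fcgr2b at 4.15 ± 0.79 FPKM. Pirb (1.37 ± 0.66) and Syk (1.32 ± 0.42) were the lowest and overlapped.

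Tyrobp, Trem2 and Syk were also set beside the genes with the most similar profile over the 9 libraries, by the root mean square (RMS) difference of centred log2 CPM. Nearest to Tyrobp were Ftl1, the ferritin light chain (RMS 0.145), Ctsz, a lysosomal cathepsin (0.152), and Cyba, a subunit of the phagocyte oxidase (0.171). The profile of Trem2 was closest to Lyplal1 (0.0912), Senp8 (0.104) and Dleu7 (0.115). For Syk the nearest were the leukocyte integrin genes Itgal (0.208) and Itgb7 (0.222) and, between them, H2-K2 (0.216).

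The rest of the pathway was followed with lists. Receptors other than Trem2 that pair with Tyrobp or Fcer1g were mostly low: 7 of the 24 in the table were tested, and 1 was called higher with ischemia and 0 lower (edgeR, 2.54% of all genes higher). It was Cd300ld, an activating receptor of myeloid cells, which had 0 to 0.111 CPM in sham, 0.715 to 1.41 in IR_WT and 3.43 to 4.10 in the knockout libraries (log2 fold change 4.85 ± 0.76 SE with ischemia, edgeR adjusted p = 0.00809, from very few sham counts). Against sham, 4 of these receptors were higher and 1 lower in the knockout libraries (edgeR, 11.8% of all genes higher and 10.7% lower). Of those higher, Clec4d, Clec4n and Cd300ld had sham means of only 0.235, 0.121 and 0.037 CPM. They may therefore have entered the test through the groups in which they were high, which would raise these counts. Of 12 genes tested in a list of other inhibitory receptors, 4 were called higher and 1 lower with ischemia, with a median log2 fold change of 0.58. The count includes Lilr4b, given above, which was listed as a relative of Lilrb4a and whose inhibitory role was not examined here. Pilra rose 1.89 ± 0.34 and Milr1 1.85 ± 0.32 on the log2 scale (edgeR adjusted p = 0.0143 and 0.0126).

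Among 12 Src-family kinases and their regulators, which phosphorylate the adaptors, 2 were higher with ischemia and 0 lower (edgeR, 2.54% of all genes higher and 1.52% lower). Fgr, a myeloid Src-family kinase, had 0.185 to 0.359 CPM in sham and 1.27 to 1.67 in IR_WT (log2 fold change 2.40 ± 0.34 SE, edgeR adjusted p = 0.00445). The list's median was −0.04, near that of all genes. Of 30 adaptors and effectors downstream of Syk, 5 were higher and 0 lower, with a median of 0.13. They included Lcp2, the adaptor known as SLP-76 (log2 1.85 ± 0.18, edgeR adjusted p = 0.000707), Lat2 (1.33 ± 0.21, 0.00809) and Blnk (0.89 ± 0.21, 0.0487). None of the 7 phosphatases that oppose the pathway passed by edgeR (0 higher and 1 lower at an unadjusted p under 0.05, 0 and 0 by DESeq2, 0 and 0 by limma on log2(FPKM + 1)). The most abundant of them, Ptpn11, changed by 0.04 ± 0.09 on the log2 scale (edgeR adjusted p = 0.852).

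Genes reported to depend on Trem2 in mouse microglia were followed although Trem2 itself did not pass the test. Of the 20 genes, 12 were called higher and 0 lower with ischemia (edgeR, 2.54% of all genes higher and 1.52% lower). Their median log2 fold change was 1.00. Spp1, which encodes osteopontin, went from 7.63 to 11.9 CPM in sham to 139 to 363 in IR_WT and 562 to 711 in the knockout libraries (log2 fold change with ischemia 4.55 ± 0.35 SE, edgeR adjusted p = 0.000185). Cst7, which encodes cystatin F, rose 4.15 ± 0.63 and Clec7a, a fungal glucan receptor, rose 3.39 ± 0.73 on the log2 scale (edgeR adjusted p = 0.00692 and 0.0348). For knockout against sham, 13 of the 20 were called higher and 2 lower (edgeR, 11.8% of all genes higher and 10.7% lower). The lower genes were Apoe, with means of 914, 671 and 436 CPM in the 3 groups (log2 −1.07 ± 0.23, edgeR adjusted p = 0.00979), and Ank (−0.24 ± 0.07, 0.0393). Between the ischemic groups none of the 20 passed by edgeR, with 12 higher and 1 lower at an unadjusted p under 0.05, 7 and 0 by DESeq2, 3 and 0 by limma on log2(FPKM + 1). Of all genes, 6.59% were higher and 6.75% lower at that unadjusted p, and 2.16% were called higher by DESeq2 and 0.441% by limma. Many of these genes are expressed by other phagocytes as well.

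Ligands, sheddases and modifiers of Trem2 gave 5 higher and 0 lower of 15 tested with ischemia (edgeR, 2.54% of all genes higher and 1.52% lower). However, 2 of the 5 were high in libraries with intestinal transcripts alone. Apob and Apoa1, apolipoproteins of the intestine and liver, had 0.0688 and 0 CPM in IR_WT 1 and at most 39.5 and 67.1 CPM in the other IR_WT libraries. Ms4a6d, a membrane protein of myeloid cells, rose 3.00 ± 0.24 on the log2 scale (edgeR adjusted p = 0.00023), from 0.963 to 1.49 CPM in sham to 7.86 to 11.4 in IR_WT. Similarly, of 8 other Fc receptor genes tested, 2 were higher and 0 lower, beside the same shares of all genes. Pigr, the epithelial transporter of polymeric immunoglobulin, had 0.275 CPM in IR_WT 1 and up to 29.3 CPM in another IR_WT library, whereas Fcrls, a microglial Fc receptor-like gene, rose evenly (log2 1.86 ± 0.22, edgeR adjusted p = 0.00167).

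Immunoglobulin chains, whose products the Fc receptors bind, showed no call: 0 of 10 passed as higher or lower with ischemia by edgeR (1 higher and 1 lower at an unadjusted p under 0.05, 1 and 0 by DESeq2, 0 and 0 by limma on log2(FPKM + 1)). Igkc, the kappa constant chain, had 27.7 to 43.6 CPM in sham, 9.40 to 35.6 in IR_WT and 6.84 to 9.72 in the knockout libraries. Against sham, 8 of the 10 chains were lower in the knockout libraries by edgeR, where 10.7% of all genes were lower, and 6 by DESeq2. Of the B cell list, which shares Ighm and Ighd with the chains, 10 of 10 tested genes were lower by edgeR and 5 by DESeq2. All sham libraries lie in the set with high B cell transcripts and all knockout libraries in the other set. The library set and these groups therefore cannot be told apart in this comparison.

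**Figure D4:**
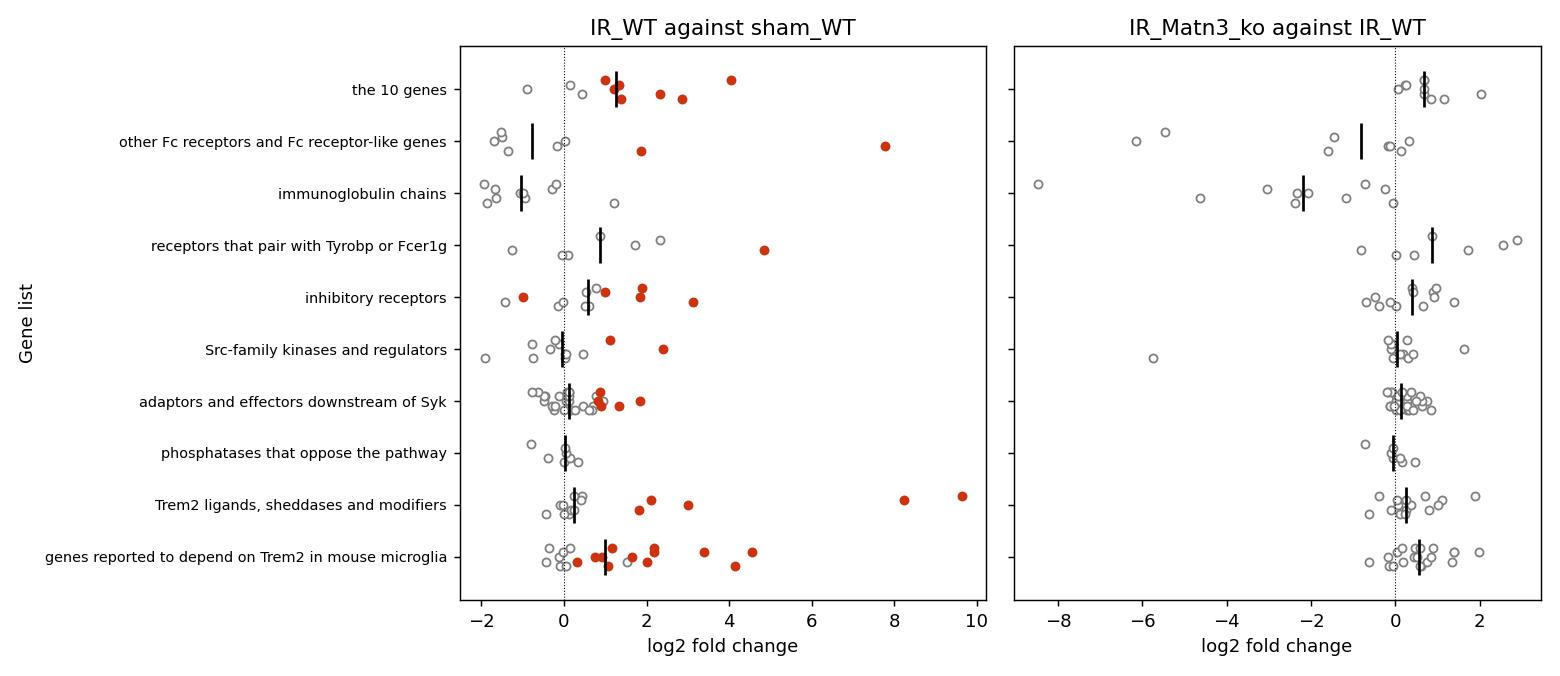
The log2 fold change of every tested gene in the 10-gene set and in 9 pathway lists, for IR_WT against sham_WT (left) and IR_Matn3_ko against IR_WT (right). Red points have an edgeR adjusted p under 0.05, open points do not, and black bars are medians; the medians of the 10 genes are 1.27 and 0.69.

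Marker lists of the cells that could carry these transcripts were set beside the results. Homeostatic microglial markers summed to 392 to 400 CPM in sham, 508 to 598 in IR_WT and 470 to 695 in the knockout libraries, and with ischemia 4 of 12 were called higher and 1 lower, the purinergic receptor gene P2ry12 (log2 −1.42 ± 0.16, edgeR adjusted p = 0.00139). Border-associated macrophage markers summed to 19.0 to 20.8, 42.2 to 54.3 and 77.7 to 82.5 CPM in the 3 groups, without overlap, but the scavenger receptor gene Stab1 made up most of the sum, with means of 12.9, 32.3 and 52.1 CPM. Of the 6 tested, Stab1 alone was called higher with ischemia by edgeR (1.33 ± 0.13, edgeR adjusted p = 0.00065). Over all genes, 2.54% were called higher and 1.52% lower with ischemia. Mrc1, a defining marker, had means of 3.58, 5.13 and 5.07 CPM, and Cbr2, another, had 0.934, 0.734 and 0.301 CPM and was called lower in the knockout libraries against sham (edgeR adjusted p = 0.0299). The part of these cells in the levels of the set was not tested.

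Neutrophil markers summed to 12.5 to 14.7, 13.6 to 17.2 and 15.3 to 30.3 CPM, with 0 of 5 called with ischemia by edgeR (1 higher at an unadjusted p under 0.05, 0 and 0 by DESeq2, 0 and 0 by limma on log2(FPKM + 1)). For knockout against sham, 1 of the 5 was higher by edgeR (Mmp9, adjusted p = 0.0296) and 3 by DESeq2. Of their defining genes, Ly6g was at 0 in all sham and IR_WT libraries, and Mpo and Elane were under 0.2 CPM in every library. Other listed genes were present and differed in direction. Cxcr2, which was not tested, had means of 0.0763, 0.318 and 1.86 CPM in the 3 groups, without overlap. S100a8 had at most 0.396 CPM in sham and at least 0.588 in IR_WT. Its knockout libraries, from 0.226 to 1.695 CPM, overlapped both groups. Means fell in Ngp (1.29, 0.545 and 0.0831 CPM) and Ltf (0.644, 0.363 and 0.0628 CPM). Monocyte markers summed to 80.2 to 252, 131 to 311 and 174 to 276 CPM and overlapped, with 0 of 6 called with ischemia by edgeR (0 at an unadjusted p under 0.05, 0 and 0 by DESeq2, 0 and 0 by limma on log2(FPKM + 1)). Natural killer cell markers, which could carry Fcgr3 and Tyrobp, summed to at most 3.06 CPM, and of 6 mast cell markers, which could carry Fcer1g, 5 were under 0.2 CPM in every library. T cell markers summed to 477 to 510, 442 to 479 and 392 to 455 CPM, nearly all from Thy1, which cortical neurons also express. Trac, a T cell receptor chain, had means of 1.66, 0.594 and 0.455 CPM and fell by 1.48 on the log2 scale with ischemia (edgeR adjusted p = 0.0369). Keratinocyte markers summed to 56.0 to 110, 20.1 to 50.9 and 15.4 to 20.4 CPM.

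The tissue itself carried its defining markers in every library. Neuronal markers summed to 8646 to 8801 CPM in sham, 7191 to 8700 in IR_WT and 6062 to 7689 in the knockout libraries. Astrocyte markers summed to 4195 to 4773, 3862 to 4726 and 2322 to 3594 CPM, with the knockout libraries below the other groups. The share of neural tissue in each sample, and its part in the levels of the set, was not tested.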

How the data were processed

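RNA of 9 mouse cortex samples was sequenced after poly(A) selection, with strand-marking and molecular identifiers, per the labels' protocols. The authors deposited gene counts and FPKM values in a single table, per the file headers. The submitters' processing notes name the aligner HISAT2 2.0.4, the trimmer cutadapt 1.9, StringTie 1.3.4d for assembly, UMI-tools for the identifiers, edgeR and DESeq2 for testing, and the human build GRCh38. The table's identifiers and coordinates are those of mouse GRCm38. The sources used here do not say whether the counts are deduplicated molecules or used strand.

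Deposited counts were tested with edgeR 4.0.16 (quasi-likelihood, TMM factors 0.948 to 1.07, R 4.3.3) in a model of all 9 libraries with 3 group means, for genes that reached 0.5 FPKM in 3 or more libraries. Benjamini-Hochberg adjustment ran over all 17247 genes, with a threshold of 0.05, and the procedure was tested on simulated data. Errors are SE for fold changes and SD for levels. The design names 3 mice per group and no batches. The p-values measure the spread between libraries, which in IR_WT includes the difference between the library sets. Knockout against sham carries that difference in the comparison itself. Deposited FPKM values were used for levels between genes and for limma 3.58.1 with pseudocounts of 1 and 0.1. DESeq2 1.42.0, no filter, no scaling, fits of the compared groups alone, a replicate block, and leaving out each library were the other alternatives.

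The planned division of libraries at 10 CPM of small intestine transcripts put all 9 in a single set. A division at 50 CPM was chosen after seeing the data, and so were the fits that use it. Replicate numbers did not pair the samples.

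The 10 genes and all lists were chosen with earlier results of these data known. Besides these genes and Matn3, genes were named by rule: up to 3 called genes per list with the largest fold change, or the most abundant where none passed, and the 3 nearest profiles of Tyrobp, Trem2 and Syk. Genes that share sequence with a member, Mrc1, Cbr2, Mmp9, Cxcr2, S100a8, Ngp, Ltf and Thy1, and those named for a low or zero level, were chosen after their values were seen. Protein sequences were not analysed here. Not every gene that the rule names is reported here.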

Additional observations from a re-analysis of the deposited data

How the results depend on the processing

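Over 20 alternatives at most for each of 30 gene-level results, 547 of 580 values kept their direction and their side of the threshold, 12 lost the call, 13 gained one and 8 turned sign. Fcgr1, Fcgr3, Fcgr4, Fcer1g and Lilrb4a stayed called with ischemia in all 19 alternatives for that comparison, and the 8 genes called for knockout against sham stayed called in theirs. Signs turned for Trem2 and Pirb with ischemia (Trem2 −0.22 with the library set term and −0.10 to 0.30 when a library was left out, lowest without IR_WT 2; Pirb −0.019 to 0.64, lowest without IR_WT 1, and 1.08 with the library set term), for Syk between the ischemic groups (−0.22 to 0.86, negative without IR_WT 2, IR_WT 3 or IR_Matn3_ko 3) and, for knockout against sham with the library set term, for Trem2 (−0.12) and Syk (0.85). The cause was not tested.

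For IR_WT against sham_WT, 701 genes were called by edgeR, 418 with no filter, 1664 with DESeq2, 410 with the replicate block, 407 with the library set term and 242 to 996 when a library was left out. The set gave 5 to 8 calls without a library, 6 with the replicate block. For IR_Matn3_ko against IR_WT the count of 0 genes became 668 with DESeq2, 84 and 18 with limma at pseudocounts of 1 and 0.1, 34 with the library set term, 14 within the 5 libraries with intestinal transcripts and 0 to 61 without a library; the set's count became 5, 2, 1, 1, 0 and 0 to 1. For IR_Matn3_ko against sham_WT, 3887 genes became 1071 with the library set term and 2139 to 4182 without a library, and the set kept 8 or 9 calls. The share of calls that were higher, 62.5% for ischemia, was 79.2% without scaling factors, 75.1% with limma on log2(FPKM + 1), 74.2% with no filter and 57.8% with DESeq2. For knockout against sham it was 52.4%, 75.2% without scaling factors and 72.0% with limma. Same-numbered libraries did not deviate together (r from −0.24 to 0.172, 1 of 9 pairs over 0.1), so the replicate block pairs samples that share a number alone. With 3 libraries a group, Fcgr4, Syk and Pirb had the widest intervals.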
